A study of Mus musculus with 71 samples.

Results

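Hpcal4, Ly6a, Thy1, Cspg4, Coro2a, Tex101, Paqr5, Aqp8 and Pnliprp2 are 9 genes, of 24222 in the count tables, that were chosen for a strong gain of RNA in mouse embryonic stem (ES) cells lacking both catalytic subunits of Polycomb repressive complex 2 (PRC2). They were picked by name from measured values in the double-knockout libraries, with no stated threshold. Their gain in those libraries, and the loss of it in the rescue libraries, is therefore described below without a test. All 9 passed a filter on low counts that kept 14145 genes, and they ranked between 4 and 511 among these by fitted fold change in the double knockout. That filter was itself met through the group in which the genes are high.

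The polyA RNA libraries form 3 groups of 3, all from C57BL/6 ES cells grown on gelatin in 2i medium, which holds ES cells in an undifferentiated state through a pair of kinase inhibitors. The first group is a knockout of Ezh1 and Ezh2 (dKO). The second is labelled EZH2 rescue and re-expresses wild-type EZH2 (rescue). The third is wild type (WT). The labels do not say whether each line is a single clone, what drives the re-expressed EZH2, or whether replicates are separate cultures, and p-values therefore reflect library-to-library spread alone, which may be technical.

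PRC2 adds methyl groups to lysine 27 of histone H3. Its catalytic subunit is EZH1 or EZH2, and SUZ12 is a core subunit needed for its assembly and its placement on chromatin. In ES cells the trimethyl mark H3K27me3 lies mostly at CpG-rich promoters of developmental genes that are kept at low RNA levels. Most of the 9 genes are known from particular cell types. Ly6a (Sca-1) and Thy1 (CD90) are lipid-anchored surface proteins used to sort blood stem cells and T cells of the mouse, and Tex101 is a lipid-anchored protein of male germ cells. Cspg4 (NG2) is a membrane proteoglycan of oligodendrocyte precursors and pericytes, Paqr5 is a membrane progestin receptor and Aqp8 is a water channel of gut, pancreas and testis. Hpcal4 is a neuronal calcium sensor, Coro2a is an actin-binding coronin and Pnliprp2 is a lipase secreted by the exocrine pancreas. The last 3 are not surface proteins, so cell surface describes 6 of the 9. The words switched on are met for Hpcal4, with 1 read in all 3 WT libraries, more closely than for Thy1, which had 97.

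Total counts were between 12457622 and 23549185 in dKO, 22228851 and 36009529 in rescue and 15018882 and 22249263 in WT. Levels are CPM, the count of a gene scaled to a library's total after TMM normalization. With 3 counts as the limit, a gene with no read could still be at 0.0857 CPM in the largest library or at 0.226 CPM in the smallest, and such limits cover counting error only. Many rescue and WT values below are at or near it. Ezh1 was at 2.34, 1.83 and 1.80 CPM in dKO, 2.89, 2.33 and 3.42 CPM in rescue and 53.4, 48.4 and 47.9 CPM in WT, so the rescue libraries also lack most Ezh1 RNA. Ezh2 was at 192, 191 and 214 CPM in dKO, 555, 576 and 549 CPM in rescue and 308, 314 and 310 CPM in WT. Ezh2 reads thus remained in dKO, and counts over a whole gene do not show whether its deleted part was read. The dKO replicate 3 stood apart from the others, with a chi-square per degree of freedom over genes of up to 22.6, against 5.44 between dKO replicates 1 and 2. Rescue replicate 2 also stood apart, at up to 11.4 against 2.99, and WT replicate 3 at up to 6.72 against 2.15.

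The promoter sequences of 4 genes show how differently these genes begin. They run from 250 bases before to 50 bases after the start site, are from RefSeq on GRCm38.p6 and have each CpG in capitals. Coro2a is shown because it alone had a Suz12 peak at its start. Hpcal4 and Tex101 stand for CpG-containing starts with no peak, and Aqp8 for a start with few CpG.
Coro2a, chr4:46601880-46602179, minus strand: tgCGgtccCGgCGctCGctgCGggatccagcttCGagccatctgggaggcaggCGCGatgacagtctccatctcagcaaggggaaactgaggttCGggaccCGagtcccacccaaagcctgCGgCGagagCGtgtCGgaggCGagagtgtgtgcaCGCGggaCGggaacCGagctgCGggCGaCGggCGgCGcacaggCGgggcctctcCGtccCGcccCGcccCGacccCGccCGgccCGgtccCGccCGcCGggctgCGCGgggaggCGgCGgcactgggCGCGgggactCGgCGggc
Hpcal4, chr4:123183254-123183553, plus strand: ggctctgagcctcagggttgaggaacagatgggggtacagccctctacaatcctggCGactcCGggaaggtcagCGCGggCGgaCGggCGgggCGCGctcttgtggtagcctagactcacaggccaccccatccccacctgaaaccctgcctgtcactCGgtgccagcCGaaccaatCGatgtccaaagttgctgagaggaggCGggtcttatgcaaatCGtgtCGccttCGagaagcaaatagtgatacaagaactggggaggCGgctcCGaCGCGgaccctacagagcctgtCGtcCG
Tex101, chr7:24672001-24672300, minus strand: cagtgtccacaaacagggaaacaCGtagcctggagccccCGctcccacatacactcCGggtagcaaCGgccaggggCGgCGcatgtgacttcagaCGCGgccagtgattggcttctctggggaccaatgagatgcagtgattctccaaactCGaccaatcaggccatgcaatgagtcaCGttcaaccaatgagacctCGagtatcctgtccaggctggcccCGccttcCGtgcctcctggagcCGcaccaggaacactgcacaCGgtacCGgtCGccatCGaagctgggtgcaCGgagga
Aqp8, chr7:123462044-123462343, plus strand: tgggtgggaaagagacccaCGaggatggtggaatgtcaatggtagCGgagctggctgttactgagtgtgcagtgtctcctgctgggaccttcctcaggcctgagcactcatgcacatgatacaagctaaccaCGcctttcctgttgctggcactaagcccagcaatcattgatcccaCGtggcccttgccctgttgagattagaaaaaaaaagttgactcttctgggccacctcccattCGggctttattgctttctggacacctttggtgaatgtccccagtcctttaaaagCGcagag

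The Coro2a start is dense in CpG, with 43 in 300 bases, a GC content of 76.0% and an observed over expected CpG ratio of 0.998, at percentile 93.9 of 32851 promoters. A second, inner Coro2a start had 3 CpG and a ratio of 0.160. Another 4 genes had intermediate starts: Hpcal4 had 22 CpG and a ratio of 0.772, Paqr5 had 21 and 0.621, Tex101 had 19 and 0.700, and Cspg4 had 17 and 0.631. Pnliprp2 had 8 CpG and a ratio of 0.313, and Aqp8 had 6 and 0.296. The median over all promoters was 7 CpG and a ratio of 0.384, so the 7 genes with a listed promoter lie on both sides of it. Ly6a and Thy1 are named only. Of 3 motifs searched on both strands, TATAAA was in none of these promoters and in 13.6% of all, CACGTG was in Aqp8 and in 7.15% of all, and CGCG was in Hpcal4, Cspg4, Coro2a, Tex101 and Paqr5 and in 38.0% of all.

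Suz12 peaks were read from a list of 7480 regions, with a median width of 1032 bp, deposited for 1 ChIP sample of wild-type 129B6F1 ES cells, a different strain from the RNA. The RNA rule did not use it. Within 1 kb of the gene body, 1 of the 9 genes had a peak, against 31.5% of the 14095 tested genes with a known position. That gene was Coro2a (chr4:46536937-46601929), an intracellular protein. It had a peak of 1903 bp at chr4:46600598-46602500, which covers the start site at 46601929. Another of 3642 bp, at chr4:46533866-46537507, overlaps its far end at 46536937. Most of that wider peak lies in Trim14, whose gene ends 787 bp from Coro2a.

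The nearest peak to the other 8 genes lay from 6495 bp to 513971 bp away. Hpcal4 (chr4:123183504-123194699) was closest, with a peak 6495 bp beyond its far end and 17690 bp from its start site. Tex101 (chr7:24668012-24672050) had its nearest peak at 25104 bp, Cspg4 (chr9:56865104-56899870) at 26995 bp, Thy1 (chr9:44043384-44048579) at 35962 bp and Ly6a (chr15:74994877-74998031) at 49547 bp. Those distances put 6 of the 9 genes within 50 kb of a peak, a window that takes in 61.0% of tested genes. Pnliprp2 (chr19:58759723-58777534), Paqr5 (chr9:61953738-62026852) and Aqp8 (chr7:123462294-123468003) had none within 297367 bp, 509691 bp and 513971 bp. Among all tested genes, 56.7% of the 4442 with a peak and 23.1% of the 9653 without one were higher in dKO than in WT by the test used below. Across all promoters, the median CpG ratio was 0.770 where a start site lay within 1 kb of a peak and 0.314 elsewhere. Hpcal4 and Tex101 thus have CpG ratios near the first median and no peak in this list, which has no score and whose calling threshold is not given in the sources used here.

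**Figure D1:**
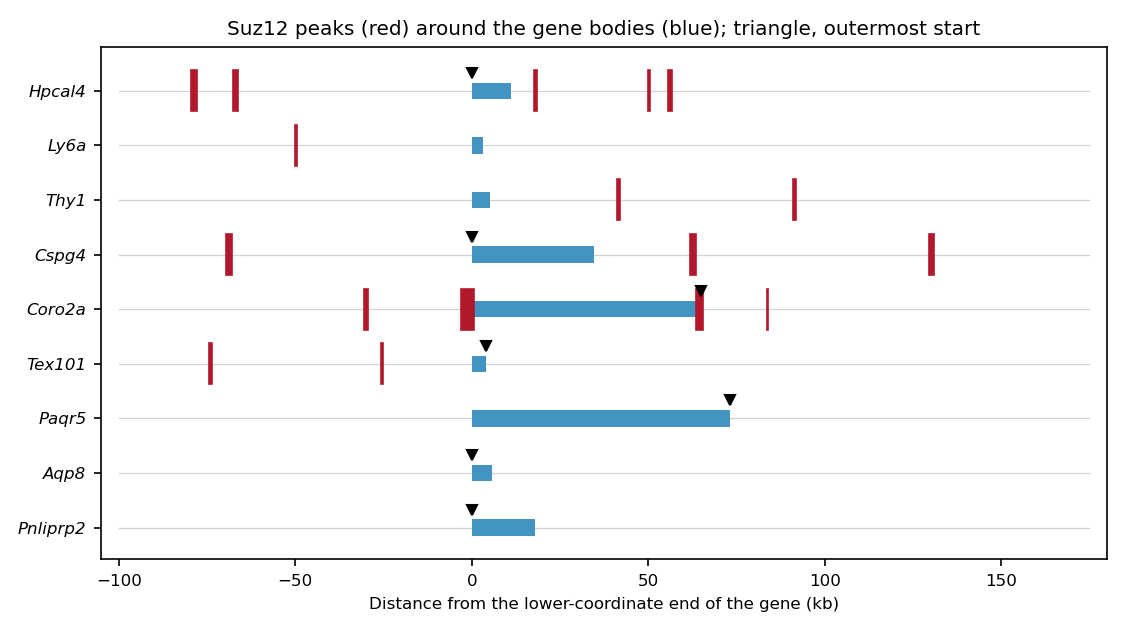
Suz12 peaks (red bars) around each gene body (blue bars), in kb from the end of the gene with the lower coordinate; triangles mark the outermost start site where the promoter table gives one. Coro2a alone has peaks on its body, 1 at each end, and Paqr5, Aqp8 and Pnliprp2 have none in the region drawn.

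The lipid-anchored surface genes were at high levels in dKO and low levels in both other groups. Thy1 was at 28.7, 30.8 and 30.1 CPM in dKO, 1.80, 1.45 and 1.69 CPM in rescue and 2.62, 1.73 and 1.13 CPM in WT. The 3 dKO libraries were within 1.07-fold of each other and far above the rest, while the rescue libraries lay inside the WT range. Its fitted log2 fold change was 4.08 (SE 0.186) for dKO against WT and -4.16 (SE 0.179) for rescue against dKO.

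Tex101 was at 12.6, 13.0 and 10.9 CPM in dKO, 0.143, 0.140 and 0.303 CPM in rescue and 0.344, 0.466 and 0.413 CPM in WT. No rescue library reached the lowest WT library, and every dKO library was above both groups. The log2 fold change was 4.85 (SE 0.211) for dKO against WT and -5.96 (SE 0.223) for rescue against dKO.

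Ly6a was at 4.45, 3.37 and 13.3 CPM in dKO, 0.657, 0.420 and 0.821 CPM in rescue and 0.138, 0.0466 and 0.0516 CPM in WT. The 3 groups did not overlap, but dKO replicate 3 was 3.39 times the mean of dKO replicates 1 and 2. That ratio was at percentile 99.96 of all tested genes. The log2 fold change for dKO against WT was 6.53 (SE 0.833), and 5.61 without dKO replicate 3. For rescue against dKO it was -3.48 (SE 0.532), and -2.56 without that library. Pnliprp2 had the second largest such ratio of the 9, at 1.51, and the other 7 genes had ratios between 0.852 and 1.19.

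The membrane genes Cspg4, Paqr5 and Aqp8 were also above both other groups in every dKO library. Cspg4 was at 6.03, 7.21 and 6.31 CPM in dKO, 0.114, 0.233 and 0.173 CPM in rescue and 0.138, 0.0933 and 0.155 CPM in WT. Rescue and WT overlapped, on 13 and 7 reads in all. Its log2 fold change was 5.63 (SE 0.273) for dKO against WT and -5.27 (SE 0.240) for rescue against dKO.

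Paqr5 was at 7.16, 5.85 and 5.67 CPM in dKO, 0.200, 0.0467 and 0 CPM in rescue and 0.138, 0.373 and 0.206 CPM in WT. Rescue replicate 3 had no read, and replicate 1 held most of the 8 reads of that group. The log2 fold change was 4.58 (SE 0.372) for dKO against WT and -5.88 (SE 0.401) for rescue against dKO, or -7.75 without rescue replicate 1, which leaves 1 rescue read.

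Aqp8 was at 5.73, 5.12 and 6.39 CPM in dKO, 0.0572, 0.0934 and 0.216 CPM in rescue and 0.482, 0.466 and 0.773 CPM in WT. Each of the 3 groups was apart from the others, with WT in the middle and rescue lowest. This gene had the smallest fitted gain of the 9, a log2 fold change of 3.30 (SE 0.258) for dKO against WT, and the drop for rescue against dKO was -5.59 (SE 0.316), or -6.22 without rescue replicate 3.

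Of the intracellular genes, Hpcal4 was at 5.88, 5.72 and 6.63 CPM in dKO, 0.715, 0.467 and 0.389 CPM in rescue and 0.0689, 0 and 0 CPM in WT. These rest on 378 reads in dKO, 44 in rescue and 1 in WT. The ratio of summed counts per depth was 339 for dKO over WT, with an exact 95% counting interval of 60.4 to 13415. Rescue held an intermediate level, and its log2 fold change against dKO was -3.47 (SE 0.243).

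Coro2a was at 13.9, 16.1 and 17.9 CPM in dKO, 0.486, 0.514 and 0.648 CPM in rescue and 0.551, 0.280 and 0.361 CPM in WT. The rescue range overlapped the WT range, and dKO was above both in every library. The log2 fold change was 5.38 (SE 0.211) for dKO against WT and -4.87 (SE 0.186) for rescue against dKO.

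The secreted lipase gene Pnliprp2 was at 7.01, 7.21 and 10.7 CPM in dKO, 0.171, 0.280 and 0.130 CPM in rescue and 0.275, 0.233 and 0.206 CPM in WT. Here too dKO replicate 3 was the highest library and the other groups overlapped. The log2 fold change was 5.12 (SE 0.298) for dKO against WT and -5.43 (SE 0.286) for rescue against dKO.

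**Figure D2:**
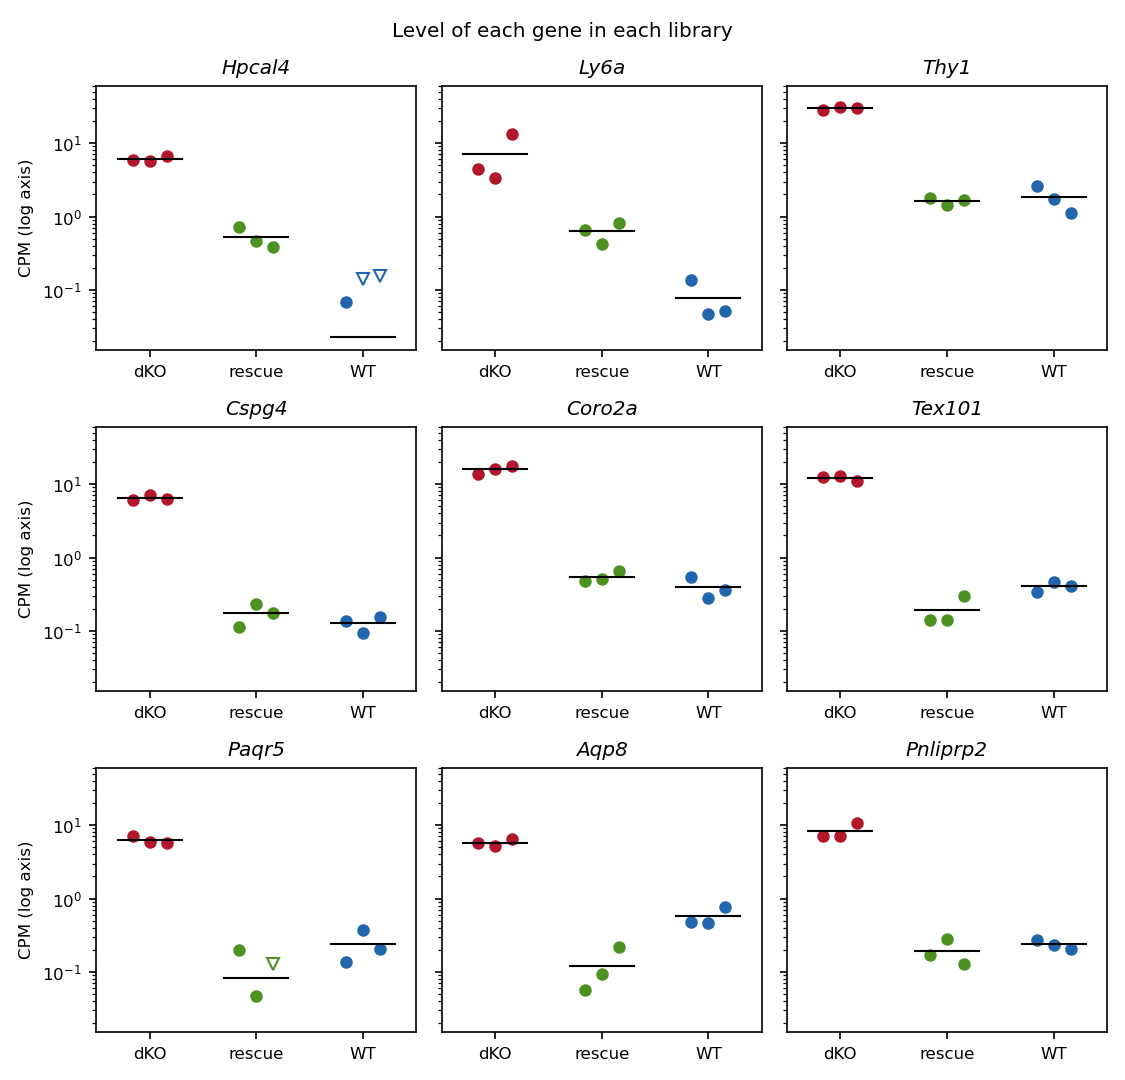
Level of each gene in each library, in CPM on a log axis, with dKO left, rescue in the middle and WT right; filled points are libraries in replicate order, open triangles mark the limit for a library with a count of 0, and bars are group means. Every dKO point lies above every rescue and WT point, Ly6a has 1 dKO library well above the others, and rescue lies apart from WT for Hpcal4, Ly6a, Tex101 and Aqp8.

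For all 9 genes the 3 dKO libraries were above the 3 WT libraries, beside 34.8% of tested genes, and above the 3 rescue libraries, beside 38.5% of tested genes with rescue below dKO. By edgeR's quasi-likelihood test with Benjamini-Hochberg adjustment over all 14145 tested genes, 33.7% were higher in dKO than in WT. Nothing is read from these counts, since the genes were chosen for that gain. In these bulk samples, RNA in a small share of cells and a low level in all cells cannot be told apart. The libraries do not mark strand. Reads of Ly6a, Coro2a and Paqr5 can therefore not be told apart from those of 3 overlapping noncoding genes, Gm28068, Gm16731 and Gm35152, which are not in the count tables.

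How close the rescue libraries came to the WT level is given for each gene as a description, with no test. The WT values helped to choose the genes, and WT and rescue values had both been seen. Of the 9, only Coro2a and Thy1 had enough reads to pass the filter on the rescue and WT libraries alone, and the other 7 entered the fit through dKO. The rescue libraries were all above the WT libraries for 2 genes, all below them for 2 and overlapped them for 5. Over all tested genes, 32.8% had all rescue libraries above and 32.5% had all below.

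Hpcal4 and Ly6a were the 2 genes with every rescue library above every WT library. Hpcal4 averaged 0.524 ± 0.170 CPM in rescue and 0.0230 ± 0.0398 CPM in WT (SD, n = 3 each). Its ratio of summed counts per depth was 30.6 for rescue over WT, with a counting interval of 5.22 to 1237, and it rests on 1 WT read. The rescue mean of Hpcal4 was 8.62% of its dKO mean, and the WT mean was 0.378% of it.

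Ly6a averaged 0.633 ± 0.202 CPM in rescue and 0.0786 ± 0.0512 CPM in WT (SD, n = 3 each), on 51 and 4 reads. The fitted log2 difference was 3.05 (SE 1.23). This SE uses a spread estimated over all 9 libraries, so the high value of dKO replicate 3 enters it although that library is in neither group. Without that library the difference was again 3.05. Its rescue mean was 9.01% of the dKO mean and its WT mean 1.12% of it, or 16.2% and 2.01% without dKO replicate 3, the library with the high Ly6a value.

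Aqp8 and Tex101 were the 2 genes with every rescue library below every WT library. Aqp8 averaged 0.122 ± 0.0833 CPM in rescue and 0.574 ± 0.173 CPM in WT (SD, n = 3 each), on 9 and 32 reads. Its log2 difference was -2.29 (SE 0.465), and -2.92 without rescue replicate 3. Tex101 averaged 0.195 ± 0.0930 CPM in rescue and 0.408 ± 0.0611 CPM in WT (SD, n = 3 each), on 15 and 23 reads, with a log2 difference of -1.11 (SE 0.385).

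For the other 5 genes rescue and WT libraries overlapped, which does not show that they are alike. For Thy1 the 95% interval of the log2 difference ran from -0.61 to 0.43, the narrowest of the 9. Coro2a had an interval of -0.21 to 1.22, Cspg4 of -0.73 to 1.45, Pnliprp2 of -1.47 to 0.85 and Paqr5 of -2.85 to 0.27. Without rescue replicate 1, which held most Paqr5 reads of its group, the Paqr5 log2 difference was -3.17. In order of group means, rescue lay between dKO and WT for Hpcal4, Ly6a, Cspg4 and Coro2a, and was the lowest group for Thy1, Tex101, Paqr5, Aqp8 and Pnliprp2.

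**Figure D3:**
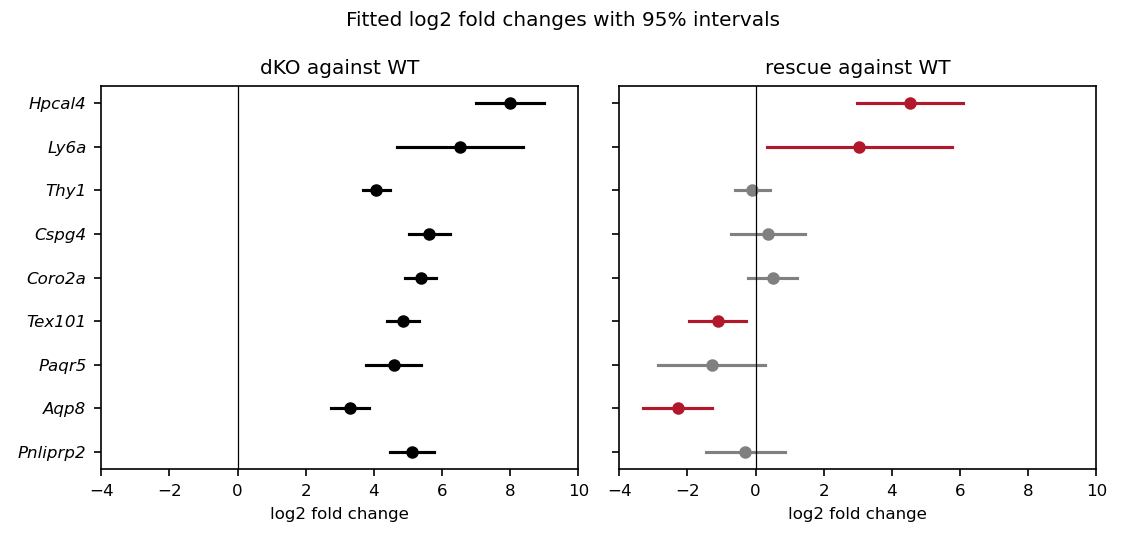
Fitted log2 fold changes with 95% intervals for dKO against WT (left) and rescue against WT (right), both as descriptions, 1 line per gene. In the right panel, red marks genes whose rescue and WT libraries did not overlap and grey those that overlapped. The fitted values of Hpcal4 rest on 1 WT read. Intervals use a spread estimated over all 9 libraries, so the high dKO replicate 3 value of Ly6a enters its interval in the right panel too.

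The genes lie on 5 chromosomes. Within 2 Mb of each, 19 to 74 other genes were tested. The median log2 fold change of these for dKO against WT was between -0.13, around Ly6a, and 0.45, around Pnliprp2, with a middle value of 0.05. In 6 of the 9 windows the named gene had the largest fold change of all. Nothing is read from that rank, since the genes were chosen for this gain. The exceptions were Cspg4 and Coro2a, with 1 gene above each, and Paqr5, with 2. For rescue against WT the window medians ran from -0.10 around Paqr5 to 0.19 around Hpcal4.

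**Figure D4:**
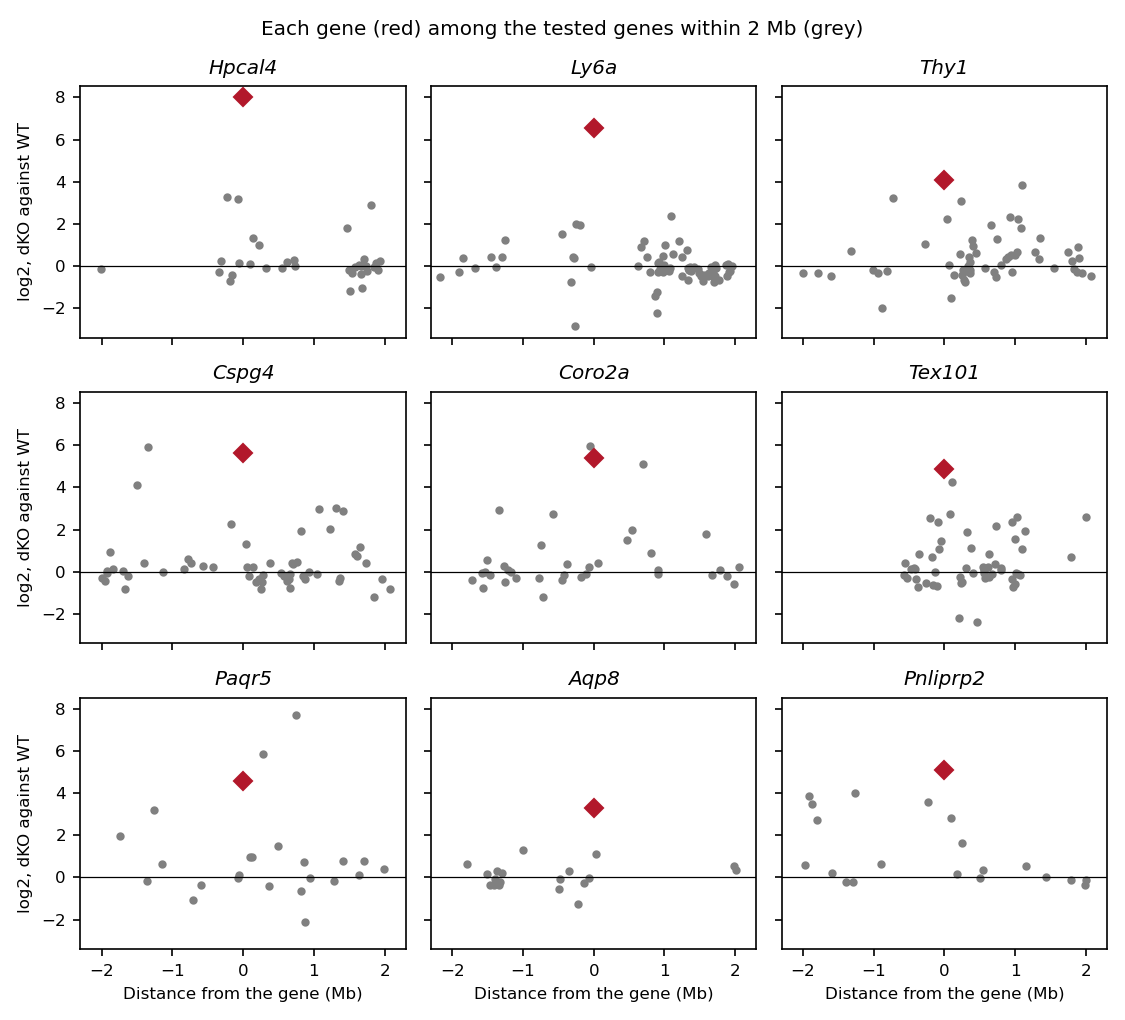
Fitted log2 fold change for dKO against WT of each of the 9 genes (red) and of the other tested genes within 2 Mb (grey), by distance in Mb. Most grey points lie near 0, and a few around Cspg4, Coro2a and Paqr5 lie above the red point. The 9 genes were chosen for a high value on this axis.

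Of the nearest protein-coding genes on both sides, 18 in all, 10 were tested, and 7 of these were higher in dKO than in WT, 0 were lower and 3 did not pass, beside 33.7% higher and 31.0% lower among all tested genes. The median log2 fold change of the 10 was 1.01. Trim14, next to Coro2a, had 158 reads in dKO, 17 in rescue and 2 in WT, and its ratio for dKO over WT was 70.8 with a counting interval of 19.3 to 590. Usp2, a ubiquitin protease gene next to Thy1, averaged 33.8 ± 1.69 CPM in dKO, 3.80 ± 0.506 CPM in rescue and 7.34 ± 0.341 CPM in WT (SD, n = 3 each). Its log2 difference was 2.21 for dKO against WT, with an edgeR Benjamini-Hochberg adjusted p of 6.23e-09, and -0.95 for rescue against WT, with 4.00e-05. The Usp2 level in rescue was thus below WT, while the Thy1 libraries of the 2 groups overlapped.

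Snx33 beside Cspg4 rose by 1.32 (SE 0.210) on the log2 scale, Zkscan2 beside Aqp8 by 1.09 (SE 0.218), Pvrl1 beside Thy1 by 1.04 (SE 0.102), Glce beside Paqr5 by 0.99 (SE 0.0762) and Tbc1d2 beside Coro2a by 0.40 (SE 0.144). Ppie beside Hpcal4, Kif23 beside Paqr5 and Lcmt1 beside Aqp8 did not pass, at 0.11, 0.09 and -0.02. The other 8 neighbours had too few reads for the test. Among them Ly6c1, a relative of Ly6a, had 4, 6 and 18 reads in dKO, 1 in all rescue libraries and 0 in WT. That is at least 8.36-fold higher in dKO, taking 3 counts over the WT group, and again dKO replicate 3 was highest. Ly6i beside Ly6a, Gm4763 beside Tex101 and Pnliprp1 beside Pnliprp2 had no read in any library.

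Relatives of the 9 genes were counted by gene family for dKO against WT, with the 9 left out. Of 13 tested genes of the Ly6 and urokinase receptor superfamily, which holds Ly6a and Tex101, 8 were higher, 3 were lower and 2 did not pass, and the median log2 change was 1.09. Plaur, the urokinase receptor, rose by 2.54 (SE 0.203), Ly6k by 1.93 (SE 0.169) and Lypd6 by 1.09 (SE 0.157), while Ly6e was at -0.07 (SE 0.0687). In rescue, Plaur was above WT by 2.21 (SE 0.204) and Ly6k was below WT, at -1.46 (SE 0.214), beside 26.8% of all tested genes above and 27.3% below WT. DESeq2 called 6 of the 13 higher in dKO.

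Of 7 neuronal calcium sensors related to Hpcal4, 5 were higher, 0 were lower and 2 did not pass, with a median of 0.72. Guca1a, a guanylate cyclase activator of the retina, rose by 2.68 (SE 0.269), Kcnip3 by 2.33 (SE 0.301) and Hpcal1 by 0.72 (SE 0.102), with Kcnip4 at 0.04 (SE 0.416). In rescue, Hpcal1 was below WT, at -1.17 (SE 0.108). Of the 6 other coronins, 4 were higher, 1 was lower and 1 did not pass, with a median of 0.94. Coro2b rose by 1.49 (SE 0.106), Coro1a, the coronin of blood cells, by 1.80 (SE 0.264) and Coro1c by 0.38 (SE 0.0547). Coro1b did not pass, at -0.03 (SE 0.0589).

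Of 10 other progestin and adipoQ receptor genes, 6 were higher, 1 was lower and 3 did not pass, with a median of 0.85. Paqr4 rose by 1.48 (SE 0.160) and Mmd by 1.15 (SE 0.0886), the adiponectin receptor gene Adipor2 was lower at -0.56 (SE 0.0792), and Adipor1 did not pass at -0.09 (SE 0.0533). Of 5 other aquaporins, 2 were higher, 0 were lower and 3 did not pass, with a median of -0.04. Aqp3, a water and glycerol channel, averaged 394.8 ± 67.0 CPM in dKO, 153 ± 6.41 CPM in rescue and 94.5 ± 1.53 CPM in WT (SD, n = 3 each), and Aqp5 had 88 reads in dKO and 1 in WT, a ratio of 78.9 with a counting interval of 13.8 to 3150. Aqp11 was at -0.16 (SE 0.168) in dKO and did not pass.

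Of 5 other genes of the pancreatic lipase family, 3 were higher and 2 were lower, with a median of 1.02. Lipg, the endothelial lipase, rose by 3.10 (SE 0.135), Lpl, the lipoprotein lipase, rose by 1.05 (SE 0.0854) and Lipc, the hepatic lipase, fell by 2.15 (SE 0.174). Of 14 proteoglycans of the Cspg4 list, 8 were higher, 4 were lower and 2 did not pass, with a median of 0.48. Syndecan 3 (Sdc3) rose by 2.44 (SE 0.0925) and glypican 1 (Gpc1) by 1.92 (SE 0.126), Sdc2 fell by 1.10 (SE 0.0726), and Gpc6 was at -0.17 (SE 0.159). Over all tested genes 33.7% were higher and 31.0% were lower in dKO, with a median of 0.00. None of these lists was tested as a set.

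Markers of cell types in which most of the 9 genes are known were measured beside them, with no list for Coro2a or Paqr5. All counts of markers called higher or lower in dKO stand beside 33.7% higher and 31.0% lower among all tested genes. Of 7 ES cell markers, Tdgf1 was higher and 6 were lower in dKO, and their summed level was 3771 to 4011 CPM in dKO, 5174 to 5271 CPM in rescue and 4489.8 to 4564 CPM in WT. The labelled cell type is thus present in every library. Beside Hpcal4, 6 neuronal markers summed to 42.2 to 51.5 CPM in dKO, 102 to 107 CPM in rescue and 38.9 to 43.0 CPM in WT, with 3 higher and 1 lower of 4 tested in dKO, and Rbfox3, Snap25 and Syt1 under 1 CPM in every dKO library. Most of the rescue sum is Tubb3, at 97.4, 92.5 and 90.6 CPM. Map2 was at 8.60, 10.2 and 9.94 CPM in rescue and at 22.4, 22.4 and 26.2 CPM in dKO.

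Beside Ly6a, 8 blood markers summed to 270.1 to 297 CPM in dKO, 352 to 375 CPM in rescue and 396 to 417 CPM in WT. Most of that sum is Kit, which was lower in dKO. The other 5 tested markers were higher in dKO, and Ptprc, which marks nearly all white blood cells, and the globin gene Hbb-bt were at 0 in dKO. Another 6 endothelial markers summed to 154 to 166 CPM in dKO, 243 to 252 CPM in rescue and 245 to 257 CPM in WT, with Emcn at 0 in dKO. Pecam1 made up most of this sum in every library. Of 4 tested, 1 was higher and 3 were lower in dKO, and Cdh5 had 37 reads in dKO and 0 in WT. Beside Thy1, 5 T cell markers summed to 30.7 to 39.6 CPM in dKO, 23.1 to 25.5 CPM in rescue and 31.6 to 36.1 CPM in WT, with Cd4 and Cd8a under 1 CPM in every dKO library. Of 4 tested, 1 was higher in dKO, Cd3g, and 2 were lower.

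Beside Cspg4, 6 markers of oligodendrocyte precursors summed to 106 to 135 CPM in dKO, 99.0 to 106 CPM in rescue and 45.7 to 46.4 CPM in WT, and all 4 tested were higher in dKO. Most of that sum in dKO and rescue is Olig2, and Gpr17 and Lhfpl3 were under 1 CPM in every dKO library. The 7 mural cell markers summed to 107 to 146 CPM in dKO, 88.4 to 98.6 CPM in rescue and 88.1 to 111 CPM in WT, with Kcnj8 at 0 in dKO and Rgs5, Abcc9 and Acta2 under 1 CPM. Notch3 made up most of this sum in every library. Of 3 tested, 2 were higher in dKO and 0 were lower, and Pdgfrb had 829 reads in dKO and 202 in WT. Fibroblast markers, which a feeder layer would bring, summed to 6.66 to 7.51 CPM in dKO, 3.86 to 5.32 CPM in rescue and 3.56 to 3.82 CPM in WT, with Col3a1 and Lum at 0 in dKO. All 3 tested fibroblast markers were higher in dKO, among them Pdgfra, which is also counted in the oligodendrocyte precursor list. Pdgfra was the largest single part of the fibroblast sum in every library, at 3.54, 3.33 and 4.43 CPM in dKO.

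Beside Pnliprp2, 7 markers of exocrine pancreas summed to 1.28 to 1.32 CPM in dKO, 0 to 0.233 CPM in rescue and 0.746 to 0.980 CPM in WT. Cpa1, Ctrb1, Prss2 and Amy2a5, which acinar cells make in large amounts, were at 0 in dKO, and the 1 marker with enough reads for the test, Cela2a, did not pass. Beside Tex101, 6 male germ cell markers summed to 149.6 to 177 CPM in dKO, 78.1 to 96.1 CPM in rescue and 154 to 171 CPM in WT, with 2 higher and 2 lower in dKO and the spermatid genes Acrv1 and Prm1 at 0. Beside Aqp8, 6 colon markers summed to 33.5 to 50.4 CPM in dKO, 52.0 to 64.2 CPM in rescue and 22.4 to 28.3 CPM in WT, with 2 of 3 tested higher in dKO and Car1 and Slc26a3 at 0. Cdx1 made up most of this sum in every library. Where marker sums move with the 9 genes, their part in the result was not tested.

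The genes whose levels followed each of the 9 most closely were found by the Pearson correlation of log2 CPM over the 9 libraries. Tested genes with predicted-gene, clone-type or microRNA names were left out, so closest means closest among the rest. These coefficients are descriptions of 3 groups that share libraries. Of the genes kept for this ranking, 308 to 981 (2.32% to 7.38%) exceeded 0.95 with each of the 9. Thy1 was closest to Timp2, an inhibitor of matrix proteases (r = 0.997), which averaged 16.1 CPM in dKO, 0.683 CPM in rescue and 0.771 CPM in WT, and to the transporter gene Slc6a13 (0.996). Coro2a was closest to the potassium channel gene Kcnk6 (0.997) and to Pitx1, a homeobox gene of the hindlimb (0.997), with 17.6 CPM in dKO, 1.27 CPM in rescue and 0.944 CPM in WT. For Cspg4 these were Heg1 (0.997) and Efr3b (0.997), for Tex101 Adssl1 (0.997) and St3gal5 (0.997), and for Pnliprp2 Tagln2 (0.998) and Dnah2 (0.998).

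Hpcal4 was closest to the sialyltransferase gene St8sia5 (0.997) and the neuronal adhesion gene Dscam (0.995), which was at 1.23 CPM in dKO, 0.220 CPM in rescue and 0.0230 CPM in WT. Both had the order of Hpcal4, with rescue between dKO and WT. The WT means of St8sia5 (0.0942 CPM), Dscam and Hpcal4 all lay below the limit for a gene with no read in the WT libraries, 0.140 CPM or more. That order thus rests on very few WT reads. For Ly6a the closest were Pitpna (0.995) and Agpat2 (0.993), for Paqr5 Churc1 (0.994) and Ngef (0.994), and for Aqp8 Nxf7 (0.995) and Serinc2 (0.995). Nxf7 shared the order of Aqp8, with 21.8 CPM in dKO, 0.555 CPM in rescue and 1.94 CPM in WT. None of the closest genes was itself among the 9. Between the 9, the coefficient was highest for Cspg4 with Coro2a (0.994) and lowest for Hpcal4 with Aqp8 (0.685) and Ly6a with Aqp8 (0.702), pairs in which rescue lay on opposite sides of WT.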

How the data were processed

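RNA counts per gene were deposited by the authors as raw whole numbers. Per the submitters' processing notes, Trimmomatic, STAR 2.4.0 and HTSeq were used on mm10, and per the labels' protocols the kit was TruSeq v2, which marks no strand. How reads were assigned to genes, and with which annotation, is not given in the sources used here. The Suz12 regions were deposited by the authors as coordinates with no score (other values). The members and lists were chosen with earlier results of these data known.

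Counts were fitted in edgeR 4.0.16 (R 4.3.3, limma 3.58.1) with TMM, filterByExpr, a robust quasi-likelihood fit of all 9 libraries and Benjamini-Hochberg adjustment, two-sided, called at an adjusted p under 0.05. For the 9 genes, all 3 comparisons are described without a test, because the values helped to choose them, although a test of rescue against WT had been planned. The calls of that planned test are given only under the dependence on processing, as a description. DESeq2 1.42.0, other scaling, no filter, the 2 groups alone, a replicate block and leaving out each library were alternatives. Genes were placed by GRCm38.p6 names: 22859 by symbol, 1201 by synonym, and 162 were not placed. All tables name genes in every row, with 0 unnamed. Named genes are the 9, the 2 most correlated genes of each, nearest protein-coding neighbours, and in each family up to 3 genes with the smallest p and 1 that did not pass. In the series, 61 of 62 ChIP samples were not analysed here, and 2 of these have disagreeing labels and no group.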

Additional observations from a re-analysis of the deposited data

How the results depend on the processing

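The numbers of genes called stayed within 1.5 times under every alternative. Leaving out each library in turn, the genes higher in dKO than in WT were 4477 to 5074 and the lower ones 3894 to 4744, the genes higher in rescue than in WT were 3159 to 4321 and the lower ones 3298 to 4389, and the genes higher in rescue than in dKO were 4148 to 4824 and the lower ones 5017 to 5768. The planned test of the 9 genes for rescue against WT is given here only, as a description, since WT values helped to choose them. The number called higher was 1 (Hpcal4), beside 26.8% of all tested genes. It was 2 with DESeq2, with the replicate block and with the 2 groups alone and no filter, the last chosen after seeing the data. It was 0 with only the 2 groups compared, where the filter kept only Coro2a and Thy1, so that the other genes were not tested, and 1 to 2 without each library. The number called lower was 2 (Aqp8 and Tex101), beside 27.3% of all tested genes. It was 1 with DESeq2 and with the 2 groups and no filter, 0 with only the 2 groups compared, and 1 to 2 without each library. Nothing is read from these counts of chosen genes. These changes are in Tex101 and Ly6a, and in Paqr5 without rescue replicate 1, apart from the genes not tested. All of the 9 genes but Coro2a and Thy1 entered the fit through dKO, and so did Hpcal4 and Aqp8, which were called. No p-value is therefore given for them. Over the alternatives, the log2 difference of rescue against WT was 2.77 to 3.57 for Ly6a and -1.51 to -0.87 for Tex101. The Thy1 log2 difference of rescue against WT was -0.34 to 0.21 without each library. It turned to 0.21 without WT replicate 1, without passing the test. That library had the highest Thy1 level of the WT group, at 2.62 CPM against 1.73 and 1.13 CPM. Why its level was higher was not tested. The fitted Hpcal4 value for dKO against WT was 10.1 without WT replicate 1, which held its only WT read. Without dKO replicate 3, a setting added after seeing the data for these counts, 6 of the 10 tested neighbours were higher in dKO in place of 7, the number of higher relatives was the same in each family, and 1 more gene was lower among the Ly6 relatives and among the aquaporins. Within 50 kb, a window added after seeing the data, 6 genes had a Suz12 peak in place of 1. Same-numbered libraries of rescue and WT had correlated deviations of -0.112, 0.115 and 0.201, and not every library correlated best with its own number. These values give no clear pairing by number, but with 3 libraries per group they cannot exclude it. The replicate block gave 3751 genes higher and 3861 lower in rescue than in WT, and 4750 higher and 4398 lower in dKO than in WT. Depth limits the rescue and WT levels of these genes, most of which rest on under 60 reads per group.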
